A study of Mus musculus with 6 samples.

Results

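The transcripts described here are those of the 4 fibroblast growth factor (FGF) receptor genes, *Fgfr1* to *Fgfr4*, and of 5 FGF ligand genes known from the lung, *Fgf1*, *Fgf2*, *Fgf7*, *Fgf10* and *Fgf18*. They are 9 of the 54532 genes in the deposited read counts and were selected by gene symbol, each of which occurred once. The 9 genes were proposed with results of the genotype comparison in view, so their differences between genotypes are given as a description, without a test. All 9 passed the filter on low counts.

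Lung tissue came from 3 mice with a wild type glucocorticoid receptor (GR+/+) and from 3 mice with an impaired one (GRdim/dim), all of the strain 129/SvEv x C57BL/6. The dim allele is a point mutation of *Nr3c1*, the gene of the glucocorticoid receptor (GR), that weakens GR dimerization, and every cell of the animal carries it. All mice of both genotypes had been instrumented and ventilated, had been bled to hemorrhagic shock (HS), with the arterial pressure held at 35 mmHg during 1 h, and had then been resuscitated over 4 h until the tissue was sampled. The study used mice of 10 to 16 weeks, and the libraries came from 2 female mice and 1 male GR+/+ mouse and from 1 female and 2 male GRdim/dim mice. No library from mice without HS was analysed here, so the values do not separate what HS does from what the genotype does without it.

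FGFs are secreted ligands that bind receptor tyrosine kinases together with heparan sulfate on the cell surface. The activated receptor signals mainly through the RAS and ERK cascade, which induces its own inhibitors of the Sprouty and dual-specificity phosphatase families. In the lung, *Fgf10* and *Fgf7* are made by mesenchymal cells and act on the epithelial form of FGFR2, and this exchange drives branching in the embryo and epithelial repair in the adult.

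The depth of the GR+/+ libraries ranged from 16361747 to 32082940 counts, with replicate 3 the deepest, and that of the GRdim/dim libraries from 15687734 to 24444604. *Nr3c1* itself had levels, in counts scaled to a common library size (CPM), of 138, 145 and 162 in GR+/+ and 159, 149.5 and 120.2 CPM in GRdim/dim replicates 1, 2 and 3, with a log2 fold change of -0.05 ± 0.17 (SE) and an adjusted p of 0.961 in edgeR. The dim allele changes the protein and not the amount of transcript, so this value does not check the genotype labels. Fewer cells of a type and less RNA per cell cannot be told apart in whole lung tissue, and this holds for every value below.

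Per kilobase of gene length, *Fgfr3* was the highest of the 4 receptor genes in GR+/+ lungs, at 31.1 ± 5.31 CPM per kilobase (SD, n = 3). *Fgfr2* followed with 16.1 ± 3.32, *Fgfr4* with 13.3 ± 5.28 and *Fgfr1* with 11.5 ± 5.06 CPM per kilobase. Neighbours in this order were set apart where their means differed by more than the sum of their SDs, and by this measure *Fgfr3* stood above the other 3, which lay within their spread. In GRdim/dim lungs the order was *Fgfr3* at 30.6 ± 4.75, *Fgfr1* at 24.9 ± 2.99, *Fgfr4* at 23.1 ± 3.12 and *Fgfr2* at 16.8 ± 0.614 CPM per kilobase. There *Fgfr3*, *Fgfr1* and *Fgfr4* lay within the spread of their neighbours, and *Fgfr2* stood below. Among the ligand genes, *Fgf1* was by far the highest in GR+/+ lungs, at 67.3 ± 6.60 CPM per kilobase. It was followed by *Fgf7* at 9.14 ± 1.04, *Fgf18* at 5.18 ± 0.742, *Fgf10* at 4.0 ± 0.795 and *Fgf2* at 3.82 ± 0.548 CPM per kilobase, of which *Fgf18*, *Fgf10* and *Fgf2* lay within the spread of their neighbours. The 4 lower ligand genes were between 3.81 and 7.02 CPM per kilobase in GRdim/dim lungs, where *Fgf1* had 44.6 ± 4.34 CPM per kilobase.

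*Fgfr1* encodes a receptor found mainly on mesenchymal and vascular cells in the adult lung. It lies at chr8:25513654-25575718 on the plus strand (GRCm38, as for all positions here). It had 166, 108 and 66.9 CPM in GR+/+ replicates 1, 2 and 3 and 256, 269.6 and 213 CPM in GRdim/dim replicates 1, 2 and 3. The genotypes did not overlap, and the lowest GRdim/dim library lay above the highest GR+/+ library. The GR+/+ libraries themselves spread 2.48-fold from the lowest to the highest, against 1.27-fold in GRdim/dim. The means were 114 ± 50.0 and 246 ± 29.5 CPM, a ratio of 2.17 and a log2 fold change of 1.12 ± 0.29 (SE). Of all genes tested, 3.42% had a larger absolute log2 fold change.

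*Fgfr4* encodes a receptor for which the lung epithelium and the liver are the best known sites, and it lies at chr13:55152640-55168759 on the plus strand. It had 54.4, 61.0 and 25.8 CPM in GR+/+ and 70.1, 83.2 and 92.2 CPM in GRdim/dim replicates 1, 2 and 3. The genotypes again did not overlap, and the lowest value was again that of GR+/+ replicate 3. The means were 47.1 ± 18.7 and 81.8 ± 11.1 CPM, a ratio of 1.74 and a log2 fold change of 0.80 ± 0.28 (SE).

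*Fgfr2*, whose epithelial isoform is the receptor for *Fgf7* and *Fgf10*, lies at chr7:130162451-133123350 on the minus strand. This annotated span reaches far beyond the RefSeq start used below. The gene length behind its values per kilobase includes 314 exon bases shared with *Ctbp2*. *Fgfr2* had 202, 134 and 162 CPM in GR+/+ and 180.2, 168 and 172 CPM in GRdim/dim libraries. All 3 GRdim/dim values fell inside the GR+/+ range, and the log2 fold change was 0.06 ± 0.18 (SE). The counts are per gene, so the epithelial and mesenchymal isoforms were not separated. *Fgfr3*, the receptor with a long-known role in growth plate cartilage that is also made by alveolar epithelium, lies at chr5:33721674-33737068 on the plus strand. It had 262, 219 and 186 CPM in GR+/+ and 200.4, 258 and 199 CPM in GRdim/dim libraries, and again all GRdim/dim values fell inside the GR+/+ range, with a log2 fold change of -0.02 ± 0.19 (SE).

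*Fgf1*, or acidic FGF, is the ligand that can bind all FGF receptors, and it lies at chr18:38838673-38929404 on the minus strand, as the deposited counts place it. It had 292, 299 and 348 CPM in GR+/+ and 202, 229 and 189.8 CPM in GRdim/dim replicates 1, 2 and 3. Every GRdim/dim library was below every GR+/+ library, and both genotypes were tight, with the highest over the lowest value at 1.19 in GR+/+ and 1.21 in GRdim/dim. The means were 313 ± 30.7 and 207 ± 20.2 CPM, a ratio of 0.662 and a log2 fold change of -0.60 ± 0.17 (SE). It was the only 1 of the 9 genes for which the genotypes did not overlap and GRdim/dim was the lower.

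*Fgf2*, or basic FGF, is an angiogenic and fibroblast mitogen and lies at chr3:37348346-37410108 on the plus strand. It had 29.6, 25.9 and 22.2 CPM in GR+/+ and 46.6, 27.0 and 41.1 CPM in GRdim/dim libraries. GRdim/dim replicates 1 and 3 lay above all GR+/+ libraries, while replicate 2 lay among them. The log2 fold change was 0.56 ± 0.23 (SE).

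*Fgf7*, keratinocyte growth factor, lies at chr2:126034658-126091185 on the plus strand and had 31.1, 32.1 and 25.8 CPM in GR+/+ and 22.5, 30.3 and 15.6 CPM in GRdim/dim libraries. GRdim/dim replicate 2 lay among the GR+/+ libraries and the other 2 lay below them, with a log2 fold change of -0.38 ± 0.25 (SE). *Fgf10*, which directs lung bud outgrowth and marks lipofibroblast progenitors, lies at chr13:118669791-118792115 on the plus strand. It had 20.6, 20.4 and 14.2 CPM in GR+/+ and 16.6, 27.6 and 15.5 CPM in GRdim/dim libraries, and the genotypes were interleaved, with a log2 fold change of 0.12 ± 0.27 (SE). *Fgf18*, a ligand of alveolar and cartilage development, lies at chr11:33117430-33147400 on the minus strand. It was the lowest of the 9 genes in CPM, at 7.17, 5.64 and 5.65 CPM in GR+/+ and 2.59, 4.28 and 6.72 CPM in GRdim/dim libraries, from 48 to 178 reads a library. The genotypes overlapped, and the log2 fold change was -0.45 ± 0.36 (SE). It was -0.16 without GRdim/dim replicate 1 and -0.83 without GRdim/dim replicate 3. That of *Fgf7* was -0.64 without GRdim/dim replicate 2 and -0.17 without GRdim/dim replicate 3, and that of *Fgf10* was -0.19 without GRdim/dim replicate 2, so single libraries decided the size of these ligand values and the sign of *Fgf10*.

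**Figure D1:**
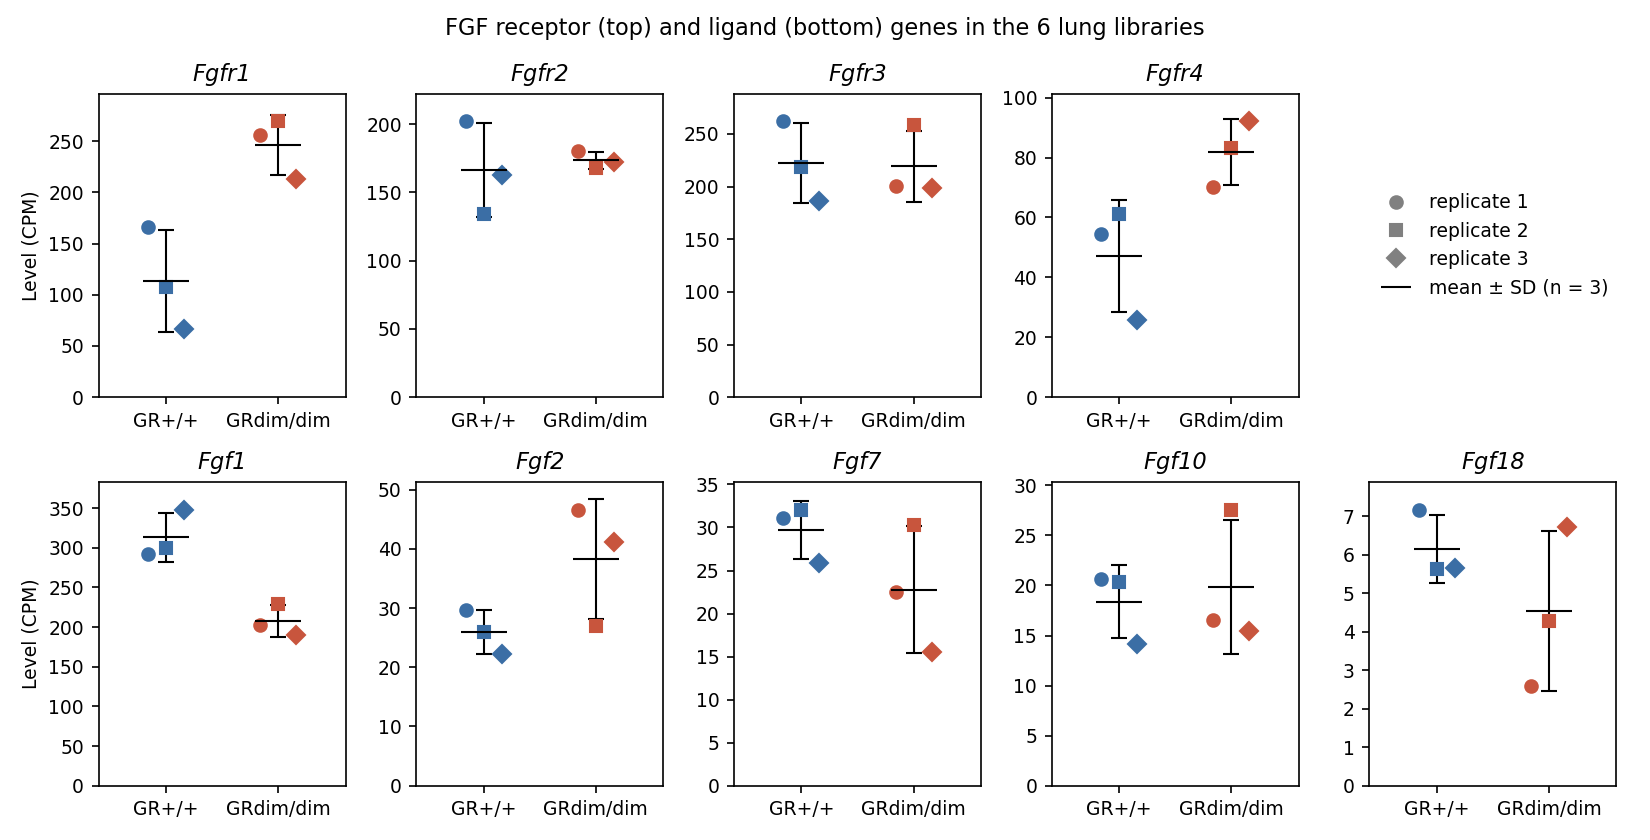
Level of each of the 9 genes in CPM (vertical axes, each starting at 0) in the GR+/+ and GRdim/dim lungs, with 1 point per mouse and replicates 1, 2 and 3 as circle, square and diamond. Bars give the mean ± SD over 3 mice, and the genotypes are apart for *Fgfr1*, *Fgfr4* and *Fgf1*.

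By the call used here, an adjusted p under 0.05 and an absolute log2 fold change over 0.5, edgeR called 0 of the 9 genes, where it called 0.169% of all 16568 genes tested. DESeq2 called 1 of them, *Fgfr1*, with a log2 fold change of 1.11, where it called 1.71% of all genes. This call was lost in DESeq2 without GRdim/dim replicate 1, GRdim/dim replicate 2, GR+/+ replicate 2 or GR+/+ replicate 3, and was made without either of the other 2 libraries. The genotypes did not overlap for 3 of the 9 genes, 2 higher and 1 lower in GRdim/dim, where they did not overlap for 14.8% of all genes (7.77% higher and 7.05% lower). Nothing is read from these counts, since the genotype difference took part in the choice of the genes. The estimates were higher in GRdim/dim for 5 genes and lower for 4, and their median log2 fold change was 0.06, against 0.01 over all genes tested.

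GR+/+ replicate 3 had the lowest level of *Fgfr1*, *Fgfr3*, *Fgfr4*, *Fgf2* and *Fgf10* among the 6 libraries and the highest level of *Fgf1*. Without it, the log2 fold change was 0.85 for *Fgfr1*, 0.50 for *Fgfr4*, 0.46 for *Fgf2* and -0.51 for *Fgf1*. These are the smallest sizes over the 12 alternatives for *Fgfr1*, *Fgfr4* and *Fgf1*. These 4 genes kept their sign without it, while *Fgf10* went from 0.12 to -0.04. Without GR+/+ replicate 1, the value of *Fgfr1* was 1.5. With sex, taken from *Xist* and the Y-linked genes, in the fit, *Fgf2* was at 0.37 and *Fgfr1*, *Fgfr4* and *Fgf1* were at 1.06, 0.76 and -0.53.

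**Figure D2:**
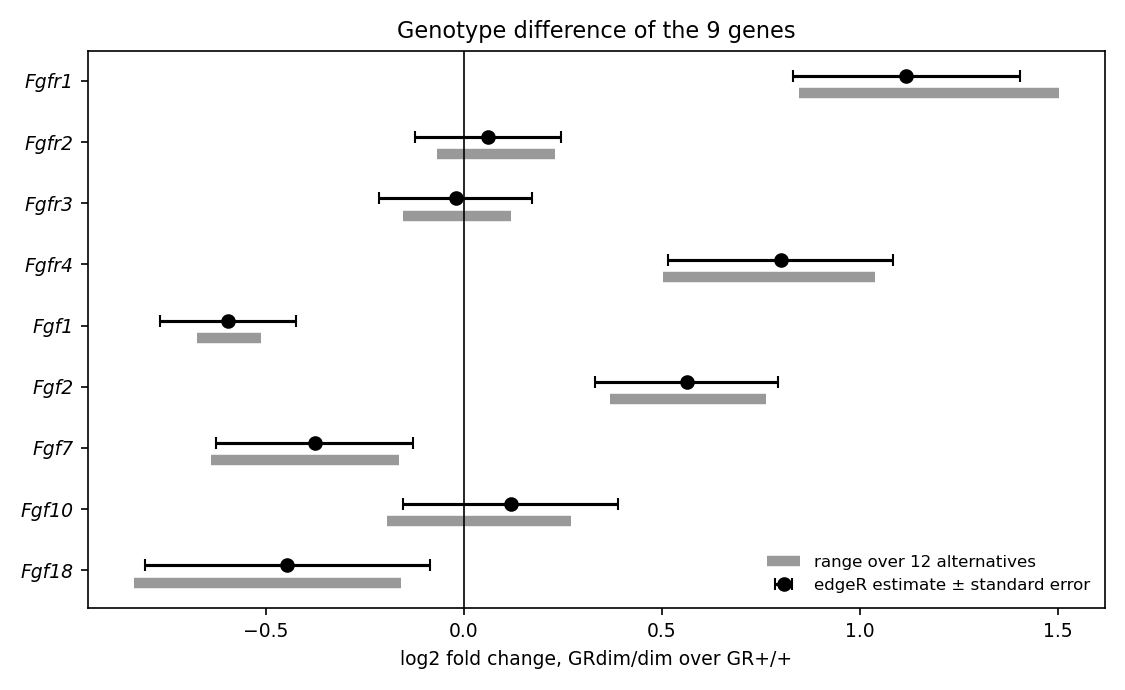
Log2 fold change of GRdim/dim over GR+/+ (horizontal axis) for the 9 genes, as the edgeR estimate ± SE (points and bars, 3 mice a genotype) and as the range over 12 alternatives (grey bars). *Fgfr1* ranged from 0.85 to 1.5 and *Fgf1* from -0.67 to -0.51, while the ranges of *Fgfr2*, *Fgfr3* and *Fgf10* cross 0.

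The makeup of the receptor transcripts differed in the same libraries. *Fgfr1* made up 19.0, 15.2 and 12.1% of the summed receptor level per kilobase in GR+/+ and 28.4, 26.5 and 23.5% in GRdim/dim replicates 1, 2 and 3. *Fgfr3* made up 41.4, 42.6 and 46.6% in GR+/+ and 30.7, 35 and 30.2% in GRdim/dim. Neither share overlapped between the genotypes, and since the shares add up to 100%, that of *Fgfr3* was lower in GRdim/dim while its own log2 fold change was -0.02. The *Fgfr1* level per kilobase was 0.860, 0.841 and 0.431 of that of *Fgfr2* in GR+/+ and 1.49, 1.68 and 1.30 of it in GRdim/dim. This ratio was below 1 in each GR+/+ library and above 1 in each GRdim/dim library. In GR+/+ the means of these receptors lay within their spread, so no order was set there. The summed receptor level was 88.4, 71.6 and 55.8 CPM per kilobase in GR+/+ and 91.2, 103 and 92.0 in GRdim/dim libraries.

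*Fgf1* made up most of the ligand transcripts in every library, with 71.9, 73.8 and 79.7% of the summed level per kilobase in GR+/+ and 69.0, 68.3 and 67.3% in GRdim/dim. *Fgf2* made up 5.01, 4.38 and 3.48% in GR+/+ and 10.9, 5.52 and 9.99% in GRdim/dim. The summed ligand level was 87.2, 87.2 and 94.0 CPM per kilobase in GR+/+ and 63.1, 72.2 and 60.7 in GRdim/dim libraries, most of it from *Fgf1*. In the pair that acts on the epithelial receptor, the level of *Fgf10* per kilobase was 0.467, 0.449 and 0.387 of that of *Fgf7* in GR+/+ and 0.520, 0.642 and 0.703 of it in GRdim/dim. This ratio did not overlap between genotypes although the levels of both genes did. All these shares and ratios rest on the contrast used in choosing the genes and were not tested.

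**Figure D3:**
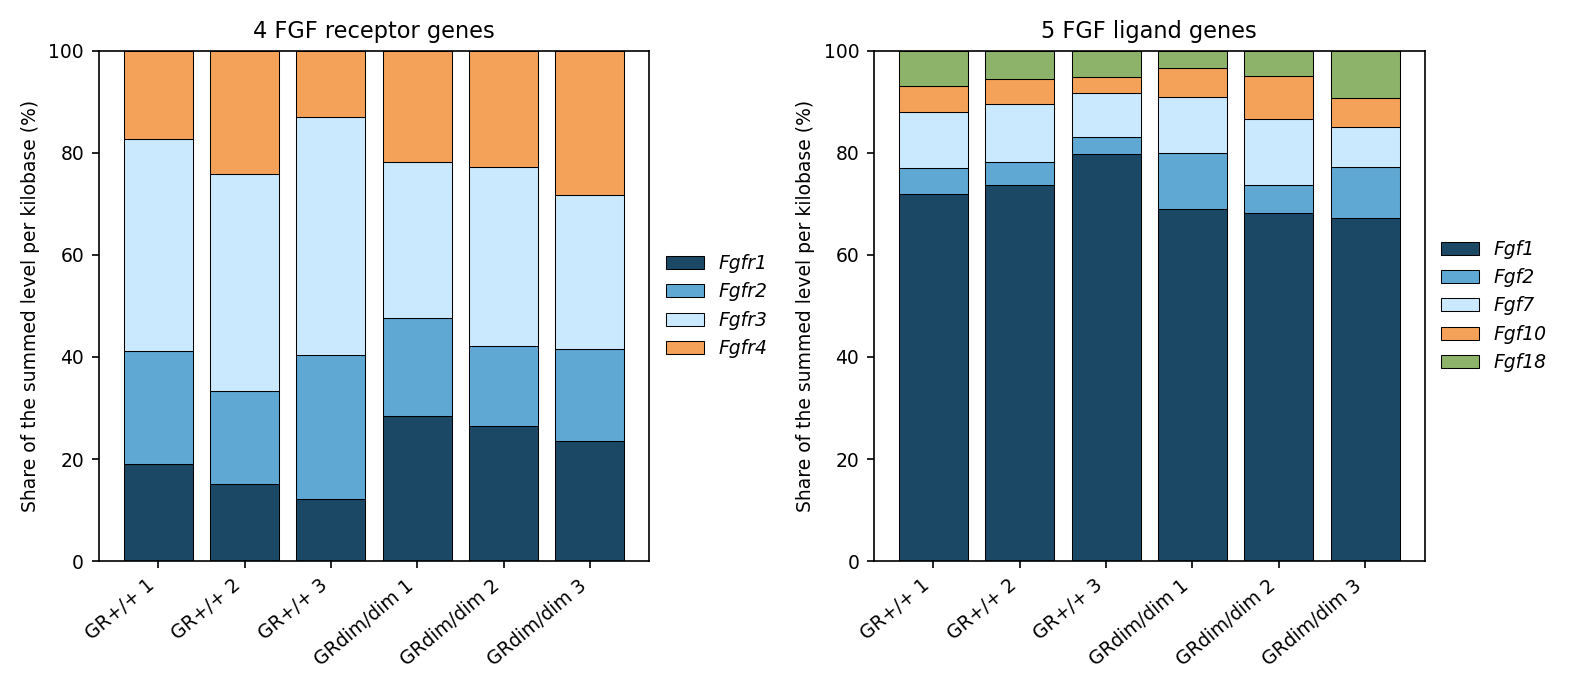
Share of each gene in the summed level per kilobase (vertical axis, %) of the 4 receptor genes (left) and the 5 ligand genes (right), 1 stacked bar per mouse. The *Fgfr1* share is 12.1 to 19.0% in GR+/+ and 23.5 to 28.4% in GRdim/dim bars, and *Fgf1* makes up more than 67% of every ligand bar.

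The GR binds a palindromic response element as a dimer and a shorter negative element as monomers, and both were searched on both strands in the 250 bases before the RefSeq start (GRCm38.p6). Windows for 7 of the 9 genes were used, and those of *Fgfr1* and *Fgf1* were not analysed here. A single arm of the dimer element was searched as AGAACA, found in 16.1% of 32851 promoter windows, and the full element as AGAACA and TGTTCT with 3 free bases between them, found in 0.00913%. The negative element was searched as CTCC followed by GGAGA, directly or with 1 or 2 free bases between them, and 1.38% of windows held any of these forms. Of the 7 genes, *Fgf2* alone had a match to any of these motifs, to the negative element with 1 free base, which is held by 0.588% of windows, and the match reads on both strands in overlapping positions. It is printed with its flanks because it is the single match, with the matched bases in capitals. In GENCODE M21 all 250 bases of the *Fgf2* window lie inside annotated exon sequence of *Fgf2*, so by that annotation the match is not before the gene. The windows of *Fgfr4*, a receptor gene whose genotypes did not overlap, and *Fgfr2*, whose genotypes overlapped, are shown beside it as windows with no match, *Fgfr4* only as far as it lies before the annotated exon.
Fgf2, chr3:37348515-37348544, plus strand: tcaccgcagTCTCCTGGAGAaagctctgcc
Fgfr4, chr13:55152568-55152639, plus strand: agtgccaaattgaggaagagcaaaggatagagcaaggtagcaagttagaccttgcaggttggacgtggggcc
Fgfr2, chr7:130266809-130267058, minus strand: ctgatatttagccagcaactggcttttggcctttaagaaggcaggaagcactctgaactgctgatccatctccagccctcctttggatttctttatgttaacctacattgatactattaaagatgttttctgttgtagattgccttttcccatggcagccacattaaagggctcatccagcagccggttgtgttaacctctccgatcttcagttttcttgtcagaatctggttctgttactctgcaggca
A match describes letters only, and no binding was measured. Outside these windows, distal elements were not searched.

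Exons of 5 of the 9 genes overlap exons of another gene, and whether strand was used in counting is not given in the sources used here. *Fgf2* shares 640 exonic bases with its antisense partner *Nudt6*, which had 24, 32 and 49 counts in GR+/+ and 5, 19 and 30 counts in GRdim/dim replicates 1, 2 and 3, and 255 bases with *Gm43439*, listed at 0 in all libraries. *Fgfr3* shares 998 bases with the antisense *G630022F23Rik*, which had 0 to 18 counts, and *Fgfr1* shares 164 bases with the antisense *Gm16159*, which had 0 to 21 counts. *Fgf10* shares 123 bases with the antisense *Gm16263*, which had 1 to 6 counts. Without strand, the reads of a gene and its antisense partner cannot be told apart. *Fgfr2* shares 314 bases with *Ctbp2* on the same strand, a gene with 600 to 1464 counts. The share of 31-base windows of a transcript that also occur in another gene was 14.9% for *Fgfr3*, 11.8% for *Fgf2*, 3.75% for *Fgfr1* and 0% for *Fgfr4*.

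Of the 75 other genes of the pathway in the deposited counts, 61 were tested, and neither edgeR nor DESeq2 called any. An unadjusted p under 0.05 in edgeR was reached by 4 of the 61 (6.56%), against 9.6% of all genes tested. Of the 4, 3 were higher and 1 was lower in GRdim/dim, where 4.91% of all genes were higher and 4.68% lower. The genotypes did not overlap for 7 of them (11.5%), against 14.8% of all genes.

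Of the 10 feedback inhibitor genes tested, 3 (30%) were at an unadjusted p under 0.05 in edgeR, all higher in GRdim/dim. Of all genes tested, 9.6% were at such a p, and 4.91% were at such a p and higher in GRdim/dim. *Dusp5*, a nuclear phosphatase of ERK, had 20.0, 12.1 and 14.5 CPM in GR+/+ and 23.3, 28.4 and 31.8 CPM in GRdim/dim libraries, with no overlap, a log2 fold change of 0.84 ± 0.24 (SE) and an adjusted p of 0.288 in edgeR. *Spry4*, a Sprouty inhibitor of the RAS pathway, had 49.4, 44.7 and 33.6 CPM in GR+/+ and 81.0, 53.8 and 73.0 CPM in GRdim/dim libraries, with a log2 fold change of 0.70 ± 0.21 (SE) and an adjusted p of 0.318 in edgeR. *Spry1*, named after its values were seen, had 176, 131 and 127 CPM in GR+/+ and 190.2, 253 and 252 CPM in GRdim/dim libraries, with a log2 fold change of 0.68 ± 0.20 (SE) and an adjusted p of 0.297 in edgeR. These 3 genes, singled out by their values, were apart between the genotypes, where 7.77% of all genes were apart and higher in GRdim/dim. None of the 3 passed the adjustment over all genes. The list was chosen with earlier results of these data known, so nothing is read from this count. The estimates of the 10 were higher in GRdim/dim for 7 and lower for 3, with a median log2 fold change of 0.30.

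The ETV transcription factors, which are induced by ERK signaling in the lung epithelium, had estimates lower in GRdim/dim for 3 of 3 genes, opposite in sign to the median of the inhibitors, and none reached an unadjusted p under 0.05. *Etv5* had 224, 141 and 185 CPM in GR+/+ and 161, 136 and 136 CPM in GRdim/dim libraries, with a log2 fold change of -0.34 ± 0.20 (SE), and *Etv4* was near 1 CPM, at -0.26 ± 0.56 (SE). The 18 signal transducers lay between -0.34 and 0.30. *Ptpn11*, the SHP2 phosphatase, had the lowest value of that list and *Nras*, a RAS protein, the highest, and neither overlapped between genotypes. Of the 18 heparan sulfate genes, *Gpc1*, a glypican, was at -0.57 ± 0.26 (SE) and *Sulf2*, an extracellular sulfatase, at -0.48 ± 0.23 (SE), with overlapping genotypes and a median over the list of -0.07.

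*Fgfbp1*, which frees FGFs from the extracellular matrix, was the lower gene of the 4: it had 65.6, 68.8 and 132 CPM in GR+/+ and 51.3, 53.0 and 64.8 CPM in GRdim/dim libraries, with a log2 fold change of -0.66 ± 0.26 (SE) and an adjusted p of 0.465 in edgeR. Of its GR+/+ values, that of replicate 3 was the highest. *Fgfbp3*, of the same family, was at 0.69 ± 0.40 (SE) with overlapping genotypes. Of 13 other secreted FGF genes, 3 passed the filter on low counts, and *Fgf9*, an epithelial and mesothelial ligand, had 0.24 to 1.83 CPM over the 6 libraries and overlapped. The 4 intracellular FGF homologous factors, which are not secreted, were all tested and overlapped, with *Fgf11* at 0.08 ± 0.26 (SE) and *Fgf13* at -0.06 ± 0.46 (SE).

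**Figure D4:**
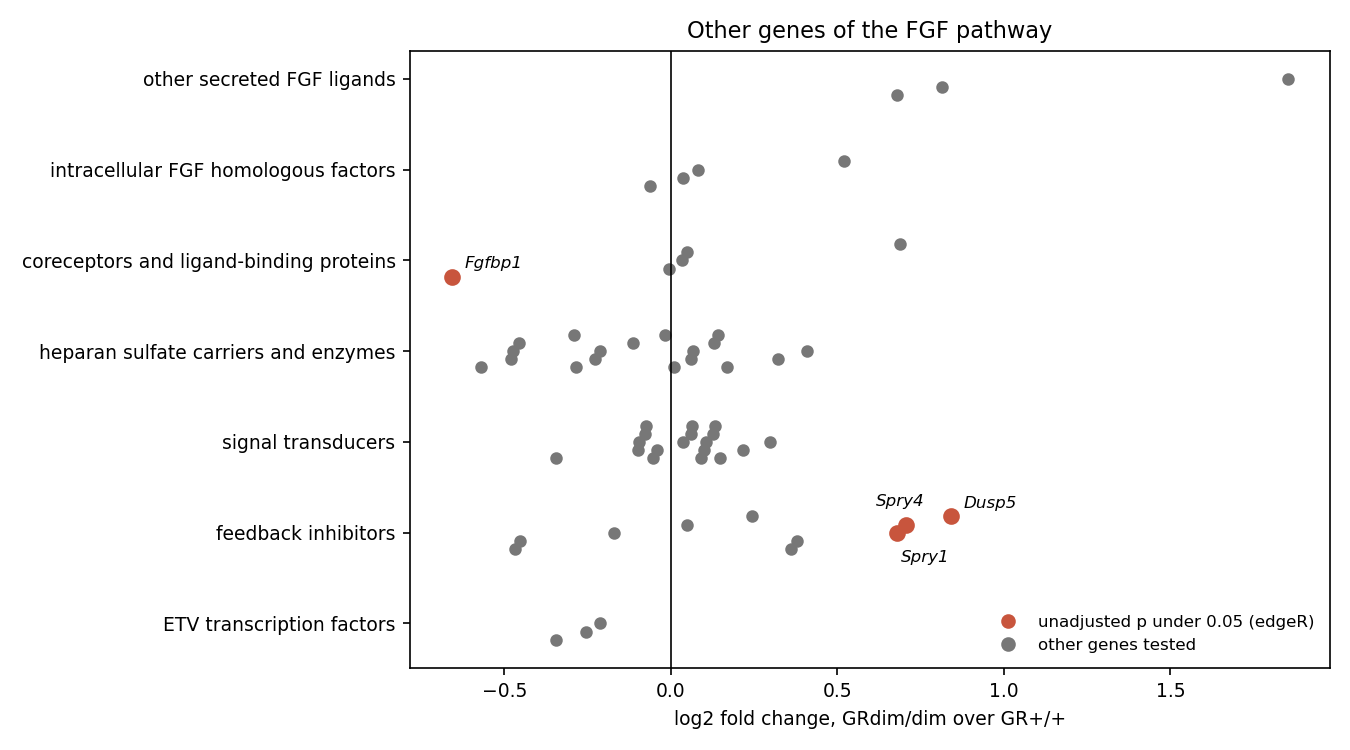
Log2 fold change of GRdim/dim over GR+/+ (horizontal axis) for the 61 other tested genes of the pathway, 1 point per gene, by role list. Points in red had an unadjusted p under 0.05 in edgeR: *Spry1*, *Spry4* and *Dusp5* between 0.68 and 0.84, and *Fgfbp1* at -0.66.

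The tissue was checked against marker lists of lung cell types, and every list was present with no marker at 0 in all libraries. The summed level of the 8 fibroblast markers, among them *Col1a1* and *Pdgfra*, was 1234 to 2955 CPM in GR+/+ and 1901 to 2592 CPM in GRdim/dim, with 5 of 8 estimates higher. That of the 7 smooth muscle and pericyte markers was 345 to 944 and 738 to 773 CPM, with 4 of 7 estimates lower. In both lists GR+/+ replicate 3 was the lowest of the 6 libraries, as it was for *Fgfr1* and *Fgfr4*. It was also the lowest in the endothelial, neutrophil and pulmonary vein cardiomyocyte lists, and in none of the others. The other GR+/+ libraries did not follow *Fgfr1* and *Fgfr4*, which lay below every GRdim/dim library in replicates 1 and 2. GR+/+ replicate 1 had the highest fibroblast sum of the 6 libraries, at 2955 CPM. GR+/+ replicates 1 and 2 had smooth muscle and pericyte sums of 944 and 845 CPM, above every GRdim/dim library. The 7 alveolar type 2 markers summed to 17142 to 25136 CPM in GR+/+ and 17205 to 25493 CPM in GRdim/dim, with 5 of 7 estimates lower. The 7 endothelial markers summed to 2869 to 4184 and 3293 to 3713 CPM, with 6 of 7 estimates lower. The 2 at an unadjusted p under 0.05 in edgeR were *Kdr*, with a log2 fold change of -0.50, and *Cldn5*, the 1 gene with a higher estimate, with 0.94. B cell markers were apart between the genotypes, with 82.3 to 168 CPM in GR+/+ and 198 to 708 CPM in GRdim/dim and 6 of 6 estimates higher, and so were T cell markers, with 20.9 to 39.0 and 42.0 to 56.0 CPM and 7 of 7 higher. Neutrophil markers summed to 249 to 484 CPM in GR+/+ and 343 to 1098 CPM in GRdim/dim, with 6 of 6 tested estimates higher. The alveolar type 1, club, ciliated, mesothelial, alveolar macrophage, pulmonary vein cardiomyocyte and erythroid sums overlapped as well, and edgeR called no marker of any list. Lower estimates numbered 5 of 7 in the alveolar type 1, 2 of 5 in the club and 4 of 5 in the ciliated list. They numbered 3 of 5 in the mesothelial and 5 of 7 in the alveolar macrophage list. The cardiomyocyte list had 2 of 6 and the erythroid list 1 of 5. A sum that overlaps can hide opposite moves of its genes. The part of cell makeup in the values of the 9 genes was not tested.

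*Fgf1* lies on chromosome 18 with *Nr3c1*, 481.1 kb from it. The other 5 tested genes within 1000 kb of *Nr3c1* were then looked at, a window chosen after the values of *Fgf1* were seen. Of these, 2 had genotypes that did not overlap, against 14.8% of all genes, and edgeR called 0. They were *Spry4*, 809.3 kb away on the same side, and *Yipf5*, a Golgi membrane protein gene, which was 713.6 kb away on the other side with a log2 fold change of 0.36 ± 0.16 (SE). In edgeR its unadjusted p was 0.0499 and its p after adjustment 0.521. *Arhgap26*, at 34.3 kb, was at -0.38 ± 0.22 (SE) and overlapped. The strain origin of this region in each mouse is not given in the sources used here, so for *Fgf1* and *Spry4* it cannot be told apart from the effect of the GR mutation.

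**Figure D5:**
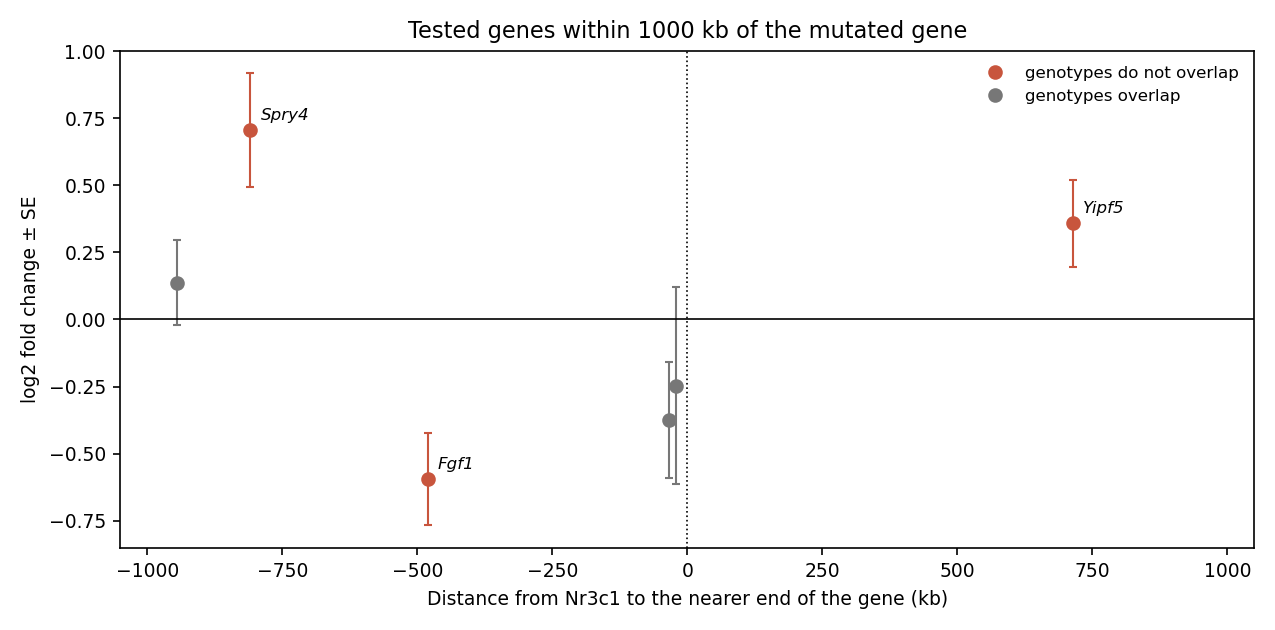
Log2 fold change ± SE of GRdim/dim over GR+/+ (vertical axis) for *Fgf1* and the 5 other tested genes within 1000 kb of *Nr3c1*, by distance from *Nr3c1* to the nearer end of the gene (horizontal axis, kb). *Fgf1* at -0.60 and *Spry4* at 0.70 lie on the same side, and the genotypes overlapped for the grey points.

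The genes with the pattern most like a member's over the 6 libraries were taken for the receptor and the ligand with the largest fold change. Likeness was the Euclidean distance of log2 CPM, centred on the gene's own mean, over 15334 genes with a mean of at least 1 CPM. Nearest to *Fgfr1* were *Aplnr*, the endothelial apelin receptor, at a distance of 0.410, then *2610524H06Rik*, *Olfr1033*, *Dnm3os* and *1600010M07Rik*, at up to 0.525. *Aplnr* had 59.5, 37.5 and 22.6 CPM in GR+/+ and 79.9, 68.7 and 73.8 CPM in GRdim/dim replicates 1, 2 and 3. It too was lowest in GR+/+ replicate 3, which follows from its choice by likeness to *Fgfr1* over these libraries. Nearest to *Fgf1* were *Slc4a8*, a bicarbonate transporter, at 0.148, then *Atp8a1*, *Rhpn2*, *Zfp971* and *Mtmr7*, at up to 0.186. *Atp8a1*, a phospholipid flippase, had 387, 389 and 450.0 CPM in GR+/+ and 295, 301 and 241 CPM in GRdim/dim libraries.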

How the data were processed

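RNA was isolated from lung tissue with Trizol, captured by poly(A) and sequenced by a commercial provider, 1 library per mouse. Whole-number counts of reads for each gene, not normalized, were deposited by the authors together with a gene length. The submitters' notes name the build mm10 and DESeq2, which the authors used for their own comparison, and the aligner, the counter, the annotation and the use of strand are not given in the sources used here. Of 54532 genes in the table, 54495 were found in GENCODE M21 and 53548 had identical coordinates. The deposited length equalled the merged exons of that release for 8 of the 9 genes. Libraries of one genotype differed far beyond sampling noise (chi-square per degree of freedom 20.7 to 73.5) and were used as separate mice.

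Counts were analysed in R 4.3.3 with edgeR 4.0.16 (TMM, filterByExpr, robust quasi-likelihood fit and test, Benjamini-Hochberg adjustment over 16568 genes), and with DESeq2 1.42.0 as an alternative (15917 genes with an adjusted p). CPM were scaled by TMM, and a prior count of 2 was used on the log2 scale. The fit was tested on simulated data. At these depths, the SD between mice within a genotype was 0.14 to 0.50 on the log2 scale for the 9 genes. The 9 genes, the pathway lists and the markers were chosen with earlier results of these data known. Beside the 9 genes, *Nr3c1* and overlapping genes, the text names in each role list the genes called and the 2 with the largest fold change and a mean of at least 1 CPM, and the 5 genes nearest in pattern.

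The alternatives tried were DESeq2, leaving out each library, a replicate block, sex as a covariate, RLE scaling, a filter of 10 reads in every library or none, and no threshold on the fold change. DESeq2 without each library was added after the data were seen. Replicate numbers were not treated as pairs, since the labels do not link them.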

Additional observations from a re-analysis of the deposited data

How the results depend on the processing

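The direction of *Fgfr1*, *Fgfr4*, *Fgf1*, *Fgf2*, *Fgf7* and *Fgf18* held in 12 of 12 alternatives, and that of *Fgfr2*, *Fgfr3* and *Fgf10*, whose values lay near 0, in 10, 9 and 10. All 108 values of the 9 genes moved by less than 1 SD between mice. Leaving out 1 of 3 mice can hardly move a value past that limit, so nothing is read from it. In place of 28 genes called over the whole table, the count was 522 with no filter on low counts, 272 with DESeq2 and 4 to 22 when 1 library was left out, with 4 without GR+/+ replicate 2, 12 without GR+/+ replicate 1, 14 without GRdim/dim replicate 3 and 17 without GR+/+ replicate 3; with DESeq2 and 1 library left out it was 269, 245 and 400 without GRdim/dim replicate 1, 2 and 3 and 175, 203 and 205 without GR+/+ replicate 1, 2 and 3. With no filter on low counts, 2 of the 9 genes were called (*Fgfr1* and *Fgfr4*) and 2 of the other pathway genes (*Dusp5* and *Spry4*). DESeq2 called 1 of the 9, and 0 to 1 with 1 library left out; it then called 0 to 2 other pathway genes, *Spry1* without GRdim/dim replicate 1 and *Dusp5* and *Spry1* without GR+/+ replicate 1. In place of 4 other pathway genes at an unadjusted p under 0.05 in edgeR, there were 10 with no filter, 7 with the sex covariate and 6 to 8 with 1 library left out. Same-numbered libraries deviated together with correlations of 0.218, 0.036 and -0.055, the first being the highest of all pairs across genotypes. GRdim/dim replicate 2 correlated best with GR+/+ replicate 3, at 0.194. These few correlations cannot decide whether the numbers pair the mice. With the replicate block, 34 genes were called over the whole table and 0 of the 9. In that fit, 8 other pathway genes were at an unadjusted p under 0.05 in edgeR. The cause of these moves was not tested. *Fgf18* had 48 to 178 reads a library, and its SD between mice, 0.49 on the log2 scale, was close to that of *Fgfr4* (0.50) and *Fgfr1* (0.48).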
